A study of Homo sapiens with 8 samples.

Results

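LSD1 occupancy was examined at 5 genes that act on the Wnt receptor or its immediate output, namely *ZNRF3*, *AXIN2*, *LGR4*, *LGR5* and *DKK1*, in MDA-MB-231 cells with and without RCOR2. The genes were taken by name with 1 fixed genomic window each, and every LSD1 summit inside a window was kept. The windows cover 567 kb of GRCh37 (hg19) and hold 30 LSD1 regions of the 68148 found over the genome, of which 22 were found in all 4 libraries.

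MDA-MB-231 is a human breast cancer cell line, and RCOR2-KO1 is a derivative in which the corepressor RCOR2 was knocked out by CRISPR/Cas9. Occupancy was profiled by CUT&RUN, in which an antibody, here against LSD1, directs a micrococcal nuclease fusion to cut the chromatin around its target, and the released fragments are sequenced. There were 2 libraries of parental cells and 2 of RCOR2-KO1 cells, all from cells grown in DMEM with serum and no further treatment stated, and 4 libraries with normal rabbit IgG served the authors as input and enter no value here. For knockout in this line the methods refer to earlier work, and after the account of another line they state that several verified knockout clones were pooled. A difference between the genotypes cannot be told apart from a difference between the parental population and the derived line. The methods give 2 repeats of the assay. Neither expression nor the loss of RCOR2 can be read from lists of LSD1 summits, so the genotype labels were not checked.

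Wnt ligands signal through Frizzled receptors and the coreceptors LRP5 and LRP6 to stabilise β-catenin. *ZNRF3*, the paralog of *RNF43*, encodes a transmembrane E3 ubiquitin ligase that removes Frizzled from the cell surface, and *LGR4* and *LGR5* encode receptors for R-spondins, which clear ZNRF3 and RNF43 and so spare the Wnt receptor. *DKK1* encodes a secreted antagonist that binds LRP5 and LRP6, and *AXIN2* encodes a scaffold of the β-catenin destruction complex. *AXIN2*, *ZNRF3* and *LGR5* are known targets of β-catenin in many tissues, which makes them feedback genes of the pathway. LSD1 is the histone H3 lysine 4 demethylase that the CoREST proteins, RCOR2 among them, hold in a corepressor complex.

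For every peak the deposited lists give a summit, which is the base where the signal peaks, and a −log10 score of its p or q. Their lengths were 47354 and 54467 summits in parental replicates 1 and 2, and 49586 and 50119 in KO1 replicates 1 and 2. Because the −log10 value depends on the depth of a library, which is unknown here, libraries were compared by within-list percentile, on which the strongest summit of a library is at 100. Summits of all lists were merged into 1 region while neighbours lay at most 500 bp apart, and regions are numbered along each window by rising coordinate. With 2 libraries against 2, the exact permutation test cannot give a two-sided p below 0.333, so a difference between the genotypes is described by whether the libraries overlap.

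The 5 windows held 24 and 26 summits in parental replicates 1 and 2 and 25 in each KO1 library. The mean was 25 in both genotypes, with an SD of 1.41 among parental and 0 among KO1 libraries (n = 2 each, exact permutation test, two-sided, p = 1). The genotypes thus had equal mean numbers of summits, whereas the genes differed widely among themselves. *LGR4* carried 10 regions found in all 4 lists in 128 kb, *ZNRF3* 5 in 195 kb, *LGR5* 3 in 166 kb, *DKK1* 3 in 24 kb and *AXIN2* 1 in 54 kb. Per 100 kb this was 12.5 regions at *DKK1*, 7.81 at *LGR4*, 2.56 at *ZNRF3*, 1.85 at *AXIN2* and 1.81 at *LGR5*, beside 1.22 over the genome. The *DKK1* value rests on a short window, and windows around genes cannot be set equal to the genome as a whole, which includes gene deserts.

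Of the 30 regions, 22 (73.3%) were found in all 4 lists, beside 52.6% of the regions over the genome. Among the remaining 8, 1 was found in both parental lists and neither KO1 list, 1 in both KO1 lists and neither parental list, 1 in 3 lists and 5 in a single list. Among the 25 regions that both libraries of at least 1 genotype held, the parental-only and the KO1-only region made up 4% each, and over the genome these kinds made up 5.84% and 4.99% of such regions. The summits of 1 region were spread over 12 to 709 bp across the 4 libraries, with a median of 203 bp beside 103 bp for all regions found in all 4 lists.

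**Figure D1:**
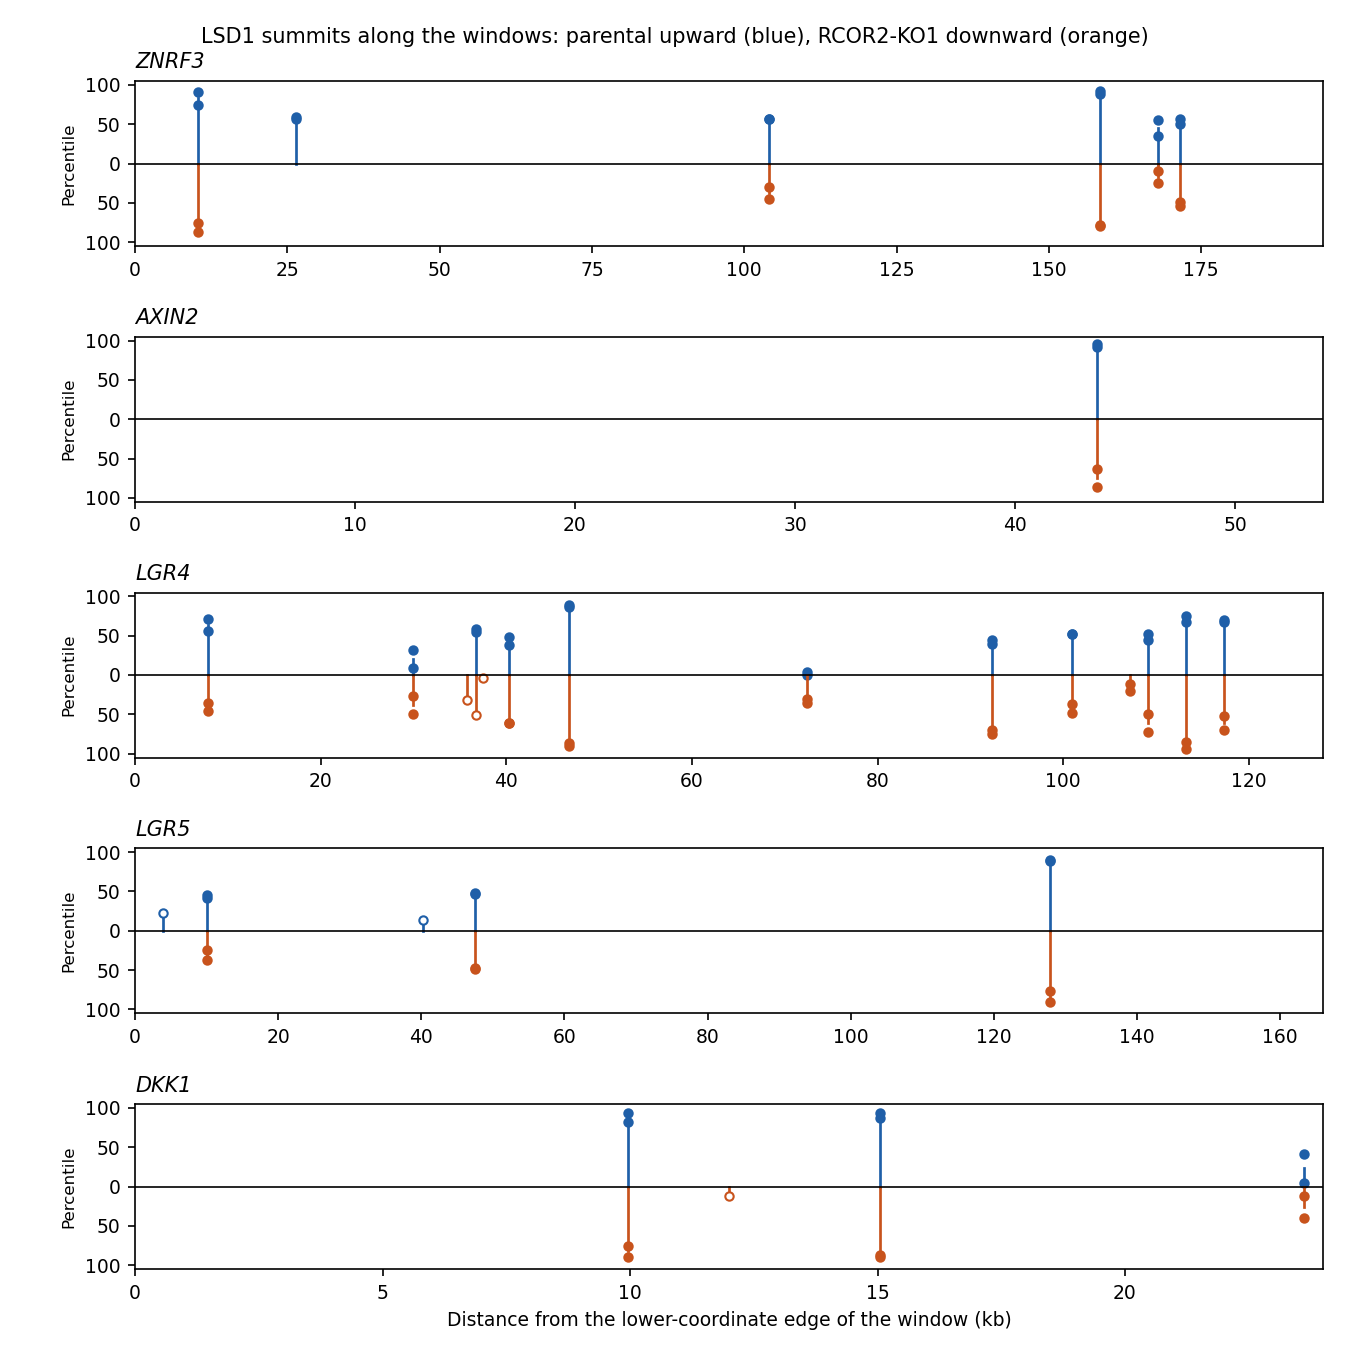
LSD1 regions along the 5 windows, with the distance in kb from the window's lower-coordinate edge on the horizontal axis and the within-list percentile on the vertical axis, parental libraries upward in blue and RCOR2-KO1 libraries downward in orange. Points are libraries, the lines reach to the mean, and open points mark a region found in 1 library of that genotype; *LGR4* carries the most regions, and *AXIN2* a single one in both genotypes.

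In each window, 1 region found in all 4 lists lay 9.96 to 10.6 kb inside an edge. This was the lower edge at *ZNRF3* (10.3 kb), *LGR5* (10.1 kb) and *DKK1* (9.96 kb) and the upper edge at *AXIN2* (10.3 kb) and *LGR4* (10.6 kb). RefSeq gives *LGR4* on the minus and *DKK1* on the plus strand, so that for these 2 genes the edge is the one on the 5′ side. The windows reach beyond the genes by flanks of a size that is not stated, and the distance of a summit to an annotated start was not measured, because GRCh37 gene models were not used here. These 5 regions were picked out after their positions were seen. Their mean percentiles over the 4 libraries were 85.2 at *DKK1*, 84.4 at *AXIN2*, 82.3 at *ZNRF3*, 64.8 at *LGR4* and 37.1 at *LGR5*.

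For *DKK1* and *LGR4*, RefSeq gives a promoter sequence, and the 250 bases before the annotated start are shown to set the letters of the TCF/LEF core, the site through which β-catenin acts on its targets, beside these genes. The letters CTTTGA and CTTTGT were searched on both strands, and matches are in capitals. The sequences are in GRCh38.p14, read 5′ to 3′ on the gene's strand, and whether a summit in GRCh37 falls within them was not tested.
*DKK1*, chr10:52314031-52314280, plus strand: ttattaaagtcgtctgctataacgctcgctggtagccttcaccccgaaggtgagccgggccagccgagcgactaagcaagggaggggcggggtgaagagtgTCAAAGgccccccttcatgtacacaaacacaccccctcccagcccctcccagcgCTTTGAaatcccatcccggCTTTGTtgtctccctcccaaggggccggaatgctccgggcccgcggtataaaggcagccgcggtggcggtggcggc
*LGR4*, chr11:27472791-27473040, minus strand: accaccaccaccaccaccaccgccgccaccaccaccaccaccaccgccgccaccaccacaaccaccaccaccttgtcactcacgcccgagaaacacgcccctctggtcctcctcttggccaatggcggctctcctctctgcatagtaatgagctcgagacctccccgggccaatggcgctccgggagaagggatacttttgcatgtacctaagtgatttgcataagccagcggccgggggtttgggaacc
The *DKK1* sequence held 3 matches, at positions -149 to -144, -95 to -90 and -76 to -71 from the start, the first of them on the reverse strand. The *LGR4* sequence held 0. Among all 35116 promoters of this length, 22.8% held at least 1 match and 0.584% held 3 or more. A match is a description of the letters and not evidence of a bound site. Promoters of *ZNRF3*, *AXIN2* and *LGR5* were not analysed here.

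Over the 22 regions found in all 4 lists, the mean percentile of a region ranged from 17.4 to 89.2 with a median of 53.5, beside a median of 60.1 for the 35861 such regions over the genome. The mean over the 22 regions was 58.0 and 60.5 in parental replicates 1 and 2, and 61.1 and 56.0 in KO1 replicates 1 and 2. This corresponds to 59.3 ± 1.72 for parental against 58.5 ± 3.61 for KO1 libraries (mean ± SD, n = 2 each), a difference of -0.727 percentile points that is smaller than the SD within either genotype. The highest-ranked regions were spread over all 5 genes. They were *DKK1* region 3 (mean percentile 89.2), *LGR4* region 7 (88.2), *LGR5* region 5 (86.5), *DKK1* region 1 (85.2), *ZNRF3* region 4 (84.7), *AXIN2* region 1 (84.4), *ZNRF3* region 1 (82.3) and *LGR4* region 13 (80.4). Each of these overlapped its neighbours in this order across the 4 libraries. With 8 of 22 regions (36.4%) at a mean percentile of 80 or above, beside 23.7% over the genome, and a median below that of the genome, strong and weak regions stood side by side at these genes.

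Both KO1 libraries lay above both parental libraries at 4 of the 22 regions (18.2%), and over the genome this was so for 19.6% of the regions found in all 4 lists. Both lay below at 7 of 22 (31.8%), beside 22.4% over the genome. With percentiles taken only among the regions found in all 4 lists, 6 lay above and 6 below. For each of these 11 regions the exact permutation test, two-sided, gave p = 0.333, the smallest that 2 libraries against 2 allow. At the other 11 regions the genotypes overlapped. The shares over the genome show that libraries of the 2 genotypes often separate in these lists, so the counts alone do not set these genes apart. The direction differed between the windows, since the 4 higher regions were all at *LGR4*, and the 7 lower regions were 3 at *ZNRF3*, 2 at *LGR4*, 1 at *AXIN2* and 1 at *LGR5*. This difference between genes was not tested.

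**Figure D2:**
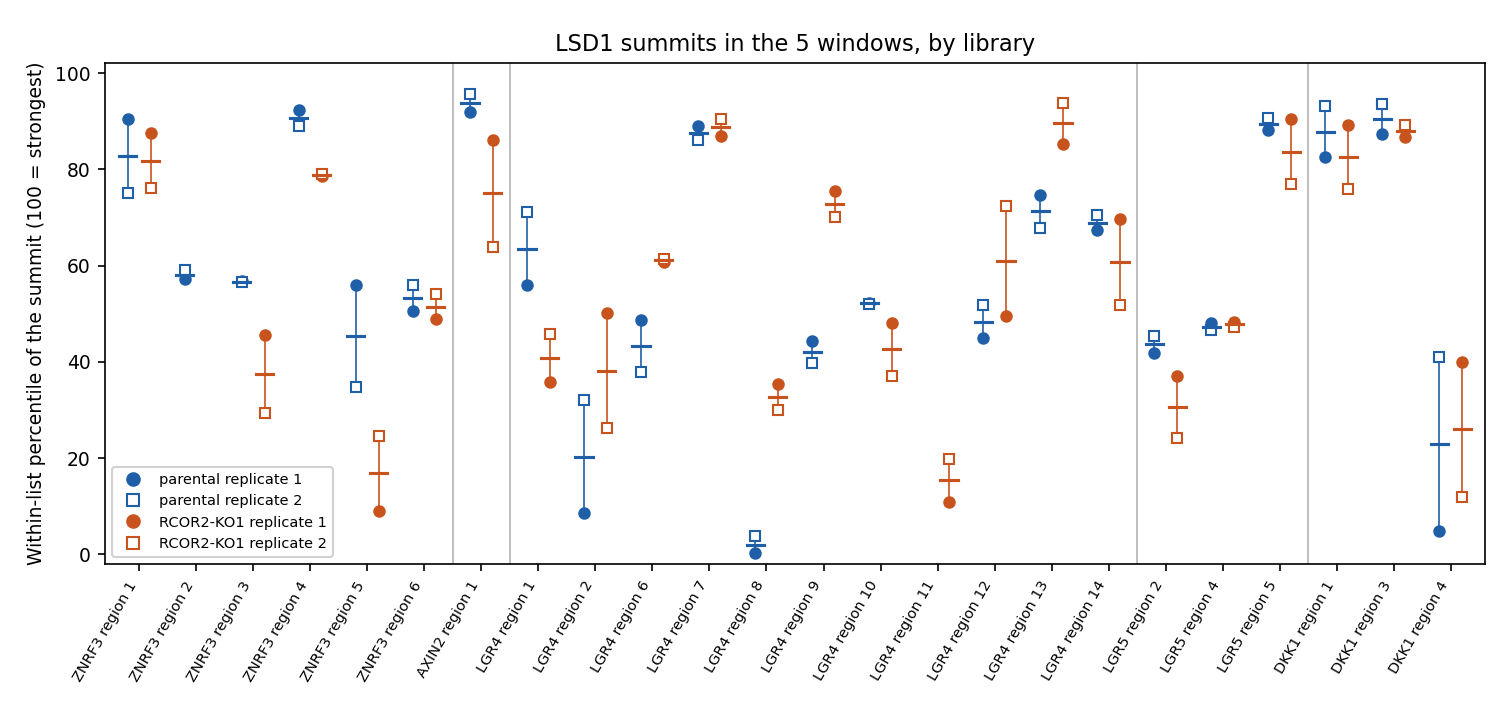
Within-list percentile (vertical axis, 100 is the strongest) in each library of the 22 regions found in all 4 lists and of the 2 found in 1 genotype only (horizontal axis, by gene and region number). Short bars are the means of 2 libraries; the KO1 libraries lie below the parental ones at 3 *ZNRF3* regions and at *AXIN2*, above them at 4 *LGR4* regions, and overlap them at all 3 *DKK1* regions.

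At *ZNRF3*, LSD1 ranked lower on average in KO1 cells at every region found in all 4 lists, and at 3 of 5 without overlap. Averaged over its 5 regions found in all 4 lists, the percentile was 69.2 and 62.3 in the parental libraries and 53.9 and 52.7 in the KO1 libraries. That is 65.8 ± 4.89 against 53.3 ± 0.872 (mean ± SD, n = 2 each), a difference of -12.5 percentile points, with a negative difference at 5 of 5 regions. Without parental replicate 2 the difference was -20.2, and region 6 was then no longer found in all lists left. With the other libraries left out the difference lay between -9.03 and -11.8. Region 3 dropped out in the same way without KO1 replicate 1, and region 4 without KO1 replicate 2. The difference was -6.43 over the 2 regions left in the upper 50% of each list. With summits joined at 250 bp, only regions 1 and 5 were still found in all 4 lists, and the difference was -14.8. At the 500 bp distance, the differences at regions 1 and 6 were small, -0.952 and -1.86. Both turned positive with 1 library left out, reaching at most 6.82 and 0.778. Within 5 Mb on either side, the 185 regions found in all 4 lists had a median difference of -1.84, and 56.8% of them had a negative difference. Both KO1 libraries lay below both parental ones at 26.5% of them. The part of this surrounding shift in the result was not tested further than by subtracting its median, which gave -10.7.

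The largest difference at *ZNRF3* was at region 5, on chromosome 22 between 29436692 and 29436927. Its percentile was 55.9 and 34.9 in the parental and 8.99 and 24.6 in the KO1 libraries, which differ by -28.6 points on average (-18.0 without parental replicate 1). The deposited −log10 values there were 20.4 and 11.8 in parental against 4.88 and 7.64 in KO1 cells. The region was thus near the weak end of the list of KO1 replicate 1, and less so in KO1 replicate 2. Region 3, between 29372748 and 29373252, stood at 56.7 and 56.6 in parental and 45.6 and 29.4 in KO1 cells. The parental libraries were close together there, and KO1 replicate 2 was the lowest of the 4, so that the difference of -19.2 became -11.1 without it. The parental summits of region 3 lay at 29373252 and 29373251 and the KO1 summits at 29372755 and 29372748. At a joining distance of 250 bp they were no longer 1 region, so the parental and KO1 values there may belong to separate sites.

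Region 4 of *ZNRF3*, between 29427099 and 29427735, was the strongest of this gene. It had percentiles of 92.3 and 89.0 in parental and 78.6 and 78.9 in KO1 cells, which is 90.7 ± 2.298 against 78.8 ± 0.267 (mean ± SD, n = 2 each). The difference of -11.9 was larger than the spread within either genotype and lay between -10.3 and -13.5 with 1 library left out, where a value could be computed. Its summits were spread over 636 bp, and at a joining distance of 250 bp they were no longer 1 region.

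The remaining regions of *ZNRF3* found in all 4 lists overlapped between the genotypes. Region 1, near the lower edge between 29279317 and 29279371, had percentiles of 90.6 and 75.02 in parental and 87.5 and 76.2 in KO1 cells. Replicate 2 was the lower library in both genotypes. Region 6, between 29440267 and 29440976, stood at 50.6 and 56.0 in parental and 48.8 and 54.1 in KO1 cells. Region 2 was called in both parental libraries, at 29295469 and 29295518 with percentiles of 57.2 and 59.0, and in neither KO1 library. A region in the middle of the parental lists was thus without a call in KO1 cells, while the calls on both sides of it remained.

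*AXIN2* carried a single LSD1 summit in each library, within 12 bp on chromosome 17 between 63557703 and 63557715, the tightest placement among all 22 regions. Its percentile was 91.8 and 95.7 in parental and 86.1 and 63.8 in KO1 cells, with deposited −log10 values of 63.0, 94.5, 53.1 and 23.8. It was thus among the strongest summits in the parental libraries and lower in both KO1 libraries, at 93.8 ± 2.74 against 74.98 ± 15.8 (mean ± SD, n = 2 each). The size of the difference, -18.8 percentile points, rests on KO1 replicate 2. Without that library it was -7.65, and without KO1 replicate 1 it was -29.9. The 176 regions within 5 Mb had a median difference of -3.60, and 32.4% of them had both KO1 libraries below both parental ones. Less the median of these surroundings, the difference at *AXIN2* was -15.2.

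*LGR4* showed the opposite balance. Its 10 regions found in all 4 lists averaged 48.6 and 51.3 in the parental libraries and 59.7 and 57.9 in the KO1 libraries. This is 49.96 ± 1.89 against 58.8 ± 1.25 (mean ± SD, n = 2 each), a difference of 8.84 percentile points, with 7 regions positive and 3 negative. Of the 69 regions within 5 Mb, 37.7% had a negative difference, beside 3 of 10 at *LGR4*. This count alone thus does not set the gene apart. The surroundings of *LGR4* also ranked higher in KO1 cells, with a median difference of 3.01. Both KO1 libraries lay above both parental ones at 27.5% of these surrounding regions. After subtracting that median the difference was 5.83. It was 1.25 with summits joined at 250 bp and 6.68 at 1000 bp. At 250 bp, regions 8, 9 and 13 were no longer found in all 4 lists. At the 500 bp distance the difference was 3.74 over the regions left in the upper 50% of the lists and 12.4 with the windows narrowed by 10 kb.

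The largest differences at *LGR4* were at regions 8 and 9. Region 8, on chromosome 11 between 27449269 and 27449623, was at the bottom of the parental lists, with percentiles of 0.190 and 3.83 and −log10 values of 2.19 and 3.88, where the lowest values listed were 1.31 and 1.40. In the KO1 lists it stood at 35.4 and 30.1, with −log10 values of 11.7 and 9.35. The region was thus among the weakest calls in parental cells and in the lower middle of the KO1 lists, with a difference of 30.8 percentile points (28.1 to 33.4 with 1 library left out). It was 18.1 with percentiles taken only among the regions found in all 4 lists. Once the longer lists were trimmed to the size of the shortest, parental replicate 2 had no summit there. Region 9, between 27469245 and 27469586, had percentiles of 44.4 and 39.8 in parental and 75.4 and 70.0 in KO1 cells. The means were 42.1 ± 3.26 and 72.7 ± 3.81 (mean ± SD, n = 2 each), and their difference of 30.6 points (27.9 to 33.3 with 1 library left out) was larger than the spread within either genotype. Both regions lay outside the 5th to 95th percentile of the differences over the genome, -24.7 to 24.0, as did *ZNRF3* region 5 and no other of the 22 regions. At a joining distance of 250 bp neither region 8 nor region 9 was 1 region of all 4 lists, because the summit of parental replicate 1 lay over 250 bp from the summits of the other 3 libraries.

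Among the strongest *LGR4* regions, region 7, between 27423700 and 27423738, was nearly level at 89.1 and 86.1 in parental and 87.0 and 90.4 in KO1 cells. Region 13, between 27489900 and 27490401, stood at 74.7 and 67.7 in parental and at 85.3 and 93.8 in KO1 cells, without overlap. The summit of KO1 replicate 1, at 27489900, lay apart from the others, and at a joining distance of 250 bp they were no longer 1 region. Region 14, near the upper edge between 27494368 and 27494407, stood at 67.4 and 70.5 in parental and 69.6 and 51.9 in KO1 cells and overlapped. Thus the region near the 5′-side edge and the region about 4 kb inside it differed in opposite directions on average. Of the other 5 regions found in all 4 lists, with mean percentiles from 29.2 to 54.6, 1 more had both KO1 libraries above the parental ones, region 6 at 27417207 to 27417270 with a difference of 17.8. Both KO1 libraries were below the parental ones at region 1 (-22.8) and region 10 (-9.57, or -4.15 without KO1 replicate 2), and the genotypes overlapped at regions 2 and 12. Regions 1, 6 and 10 are named here after their values were seen. Region 1, between 27384836 and 27384851, lies at the lower end of the window, on the side where *CCDC34* is the next protein-coding gene in RefSeq.

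*LGR4* also held the only region found in both KO1 lists and neither parental list, region 11 at 27484232 and 27484270, with percentiles of 10.9 and 19.9. It was weak in both libraries, with −log10 values of 5.22 and 6.72. Regions 3, 4 and 5, between 27412729 and 27414545, are a cluster in which all 4 libraries had a summit, but KO1 replicate 2 had 2 summits, of which neither lay within 500 bp of those of the other libraries. At a distance of 1000 bp they were 1 region found in all 4 lists, which made 23 such regions in all.

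*LGR5* carried 3 regions found in all 4 lists, whose mean was 60.1 ± 1.04 for parental against 54.0 ± 6.46 for KO1 libraries (mean ± SD, n = 2 each), a difference of -6.10 percentile points (-1.53 without KO1 replicate 2). The surroundings ranked the other way, with a median difference of 4.801 over 112 regions within 5 Mb, and the difference was -10.9 after subtracting it. Region 2, near the lower edge on chromosome 12 between 71832905 and 71833471, had percentiles of 41.9 and 45.4 in parental and 37.1 and 24.2 in KO1 libraries. The KO1 libraries were both the lower ones there, with a difference of -13.0 (-6.58 without KO1 replicate 2). The summit of KO1 replicate 2, at 71833471, lay apart from the others, and at a joining distance of 250 bp they were no longer 1 region. Region 4, between 71870435 and 71870520, was the most even of all 22, at 48.1 and 46.6 in parental and 48.4 and 47.2 in KO1 cells. Region 5, between 71950903 and 71950922, was the strongest, with 88.2 and 90.6 in parental and 90.4 and 77.0 in KO1 cells, and the genotypes overlapped. The remaining 2 regions were weak calls in parental replicate 2 alone, at 71826877 and 71863260, with percentiles of 22.6 and 14.3.

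*DKK1* had the smallest mean difference of the 5 genes. Its 3 regions found in all 4 lists averaged 67.1 ± 12.5 in parental against 65.5 ± 9.15 in KO1 libraries (mean ± SD, n = 2 each), a difference of -1.61 percentile points that ranged from -10.5 to 7.23 with 1 library left out. Region 1, near the lower edge on chromosome 10 between 54073692 and 54074059, had percentiles of 82.6 and 93.1 in parental and 89.2 and 76.0 in KO1 cells. Region 3, between 54078862 and 54079256 and about 5 kb further, stood at 87.4 and 93.6 in parental and 86.6 and 89.1 in KO1 cells. Both were strong in every library. At both, the SD of the parental libraries (7.48 and 4.35) was larger than the size of the difference between the genotypes (-5.24 and -2.59). The SD of the KO1 libraries was larger than it at region 1 (9.37) but not at region 3 (1.76). Region 4, between 54087488 and 54087956 and within 0.389 kb of the upper edge, was weak and uneven at 4.77 and 41.1 in parental and 40.0 and 11.9 in KO1 cells. Region 2 was called in KO1 replicate 1 alone, at 54076010 with a percentile of 11.98. The 52 regions within 5 Mb had a median difference of 2.11.

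**Figure D3:**
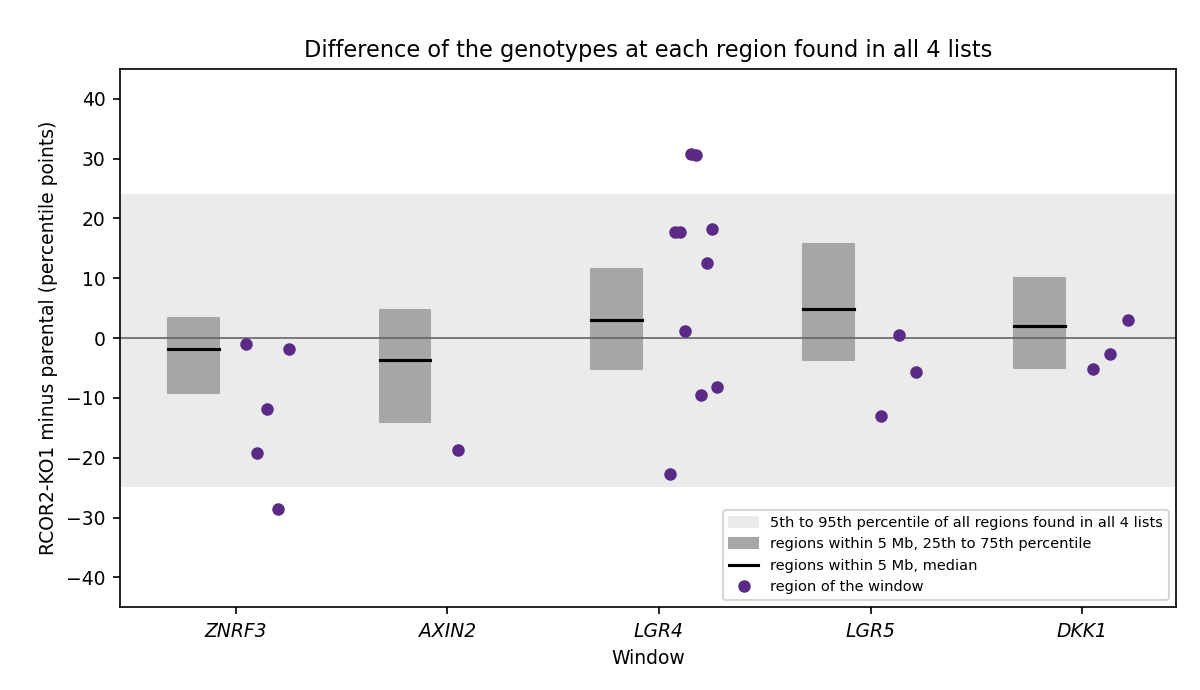
KO1 minus parental difference in percentile points (vertical axis) of each region found in all 4 lists (purple points) by window (horizontal axis), beside the 25th to 75th percentile (dark grey box) and median (black line) of the regions within 5 Mb, and the 5th to 95th percentile over the genome (light grey band, -24.7 to 24.0). All 5 *ZNRF3* points are below 0, 7 of 10 *LGR4* points are above it, and 3 points leave the band. Of the regions within 5 Mb, 56.8% at *ZNRF3* and 37.7% at *LGR4* were below 0.

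The regions that lay about 10 kb inside an edge had a negative difference at all 5 genes, from -0.952 at *ZNRF3* through -5.24 at *DKK1*, -8.21 at *LGR4* and -13.0 at *LGR5* to -18.8 at *AXIN2*. The libraries did not overlap at 2 of them, *AXIN2* and *LGR5*. With 1 library left out, the sign turned at *ZNRF3*, *LGR4* and *DKK1*. At *ZNRF3* it also turned, to 0.889, after subtracting the median of the surroundings. These regions were picked out after their positions were seen. Over the genome 52.6% of the regions found in all 4 lists had a negative difference, as had 13 of the 22 regions here (59.1%).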

How the data were processed

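CUT&RUN with an LSD1 antibody was analysed in 2 libraries of parental MDA-MB-231 cells and 2 of their RCOR2-KO1 derivative. Per the labels, the authors' processing notes name FastQC 0.11.2, Bowtie2 2.3.3.1, Picard, MACS2 2.1.0 and hg19, without stating the role of each. The authors deposited the MACS2 summits of each library with a −log10 of a p or q value, called with IgG libraries as input; the threshold, the removal of duplicates and the depth are not given in the sources used here, so no interval from counts is given. The depth and the calling threshold set which weak summits are listed.

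The work used scipy 1.17.1, numpy 2.4.6 and pandas 2.3.3 under Python 3.11.15. The percentile is the share of a list at or below a value. Autosomal and X-chromosomal summits were joined at up to 500 bp, a region took the highest percentile of its summits in each library, and it was counted in a window when its mean summit position lay there. Presence, overlap of libraries and differences were computed for all regions and are printed for the windows. The surroundings are the regions found in all 4 lists within 5 Mb of a window. The steps were tested on simulated lists, in which the summits of a region lay closer together than at many regions here. That test therefore does not cover regions with widely spread summits. All values in each library were to be printed for regions found in all 4 lists or in 1 genotype only; at LGR4, which has over 8 of them, for the 4 strongest and the 2 with the largest difference. The genes, windows and tests were chosen with earlier results of these data known. Other genes of the pathway need an annotation of GRCh37 and were not analysed here. Promoter sequences and gene neighbours are from RefSeq (GRCh38.p14), and no coordinates were converted.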

Additional observations from a re-analysis of the deposited data

How the results depend on the processing

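With all 4 libraries, the number of regions found in all 4 lists, 22, was 13 at a joining distance of 250 bp and 9 in the upper 50% of each list, and 18 to 23 under the other settings. The regions found in 1 genotype only, 2, were 5 at 250 bp and 6 in the upper 50%. The regions with both KO1 libraries above both parental libraries, 4, were 1 at 250 bp and 1 in the upper 50%, and those below, 7, were 4 and 2; both settings leave fewer regions to compare. With percentiles among the regions found in all 4 lists they were 6 above and 6 below. The difference in summits per list, 0, was -3 in the upper 50% and 2 with windows narrowed by 10 kb, and the cause was not tested. With 1 library left out, these results ranged from 20 to 22, from 3 to 8, from 6 to 7, from 8 to 13 and from -1 to 1; 1 genotype then has 1 library, which by construction makes separation easier. Parental replicate 1 decided the highest count below, 13, and KO1 replicate 1 the highest count in 1 genotype, 8.

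The mean difference over all regions, -0.727, lay between -3.77 and 0.644 with all libraries and between -1.94 and 2.11 with 1 left out, so its sign is not settled. Subtracting the median of the surroundings, an alternative chosen after seeing the data, gave -2.45. With all libraries kept, the sign of the difference turned in 3 of 171 values of single regions, all after that subtraction, and in 0 of 44 values of genes. With 1 library left out it turned in 14 of 84 values, at 9 of 22 regions, and in 2 of 20 values of genes, both at *DKK1*. At *DKK1* no region found in all 4 lists was left in the narrowed window.

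A replicate block on the library number left the mean difference at -0.727 and the difference in summits at 0, which is so by construction. The smallest two-sided p of 2 pairs is 0.5. Whether libraries of equal number were prepared together is not stated, and they were treated as unpaired. The replicate differences of the 2 genotypes had a correlation of 0.00722 over the regions found in all 4 lists. No shared replicate effect on the percentile scale was detected by this value. Such an effect was not tested within the windows or by signal strength, and the value cannot show how the libraries were prepared. The unknown depth limits how weak a summit can be read.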
